A study of Mus musculus with 6 samples.

Results

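Amino acid transporter genes were examined in N1E115 cells, a mouse neuroblastoma line labelled as NOS1 positive (NOS1 is neuronal nitric oxide synthase). Members were the rows whose symbol belongs to the solute carrier families Slc1, Slc3 (heavy chains Slc3a1 and Slc3a2), Slc7, Slc36, Slc38 or Slc43, which gave 42 genes of the 23358 rows in the table. Cells had been kept for 3 days in 20% or 4% oxygen, and each oxygen level had 3 RNA sequencing libraries, numbered 1 to 3. The groups differ in oxygen alone per the labels, and all libraries come from this established line, with no transgene or drug named. No label states if the 3 libraries at an oxygen level were grown as separate cultures, and each p-value therefore covers library-to-library spread that could be technical alone.

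Amino acids cross membranes on carriers with distinct coupling. Slc1 proteins take up glutamate or exchange small neutral amino acids with sodium. Slc7 proteins form a branch of free-standing cationic amino acid transporters (CAT proteins), which bring in arginine, the substrate of nitric oxide synthases, and a branch of light chains that reach the cell surface bound to a heavy chain, Slc3a2 (4F2hc) or Slc3a1 (rBAT). Slc38 proteins carry glutamine and other neutral amino acids with sodium, Slc36 proteins couple amino acids to protons, and some members of both families work in lysosomes, where amino acid supply is read by the mTORC1 kinase complex. Several carrier genes are targets of ATF4, a transcription factor made when amino acids run short or the endoplasmic reticulum is stressed, which binds C/EBP-ATF response elements in their promoters.

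Library totals lay between 124259152 and 163695286 counts over genes. Sympathoadrenal markers were abundant in every library, at a summed 4380 to 4490 CPM (counts scaled to TMM-adjusted library totals) at 20% oxygen and 6070 to 7380 CPM at 4% oxygen. Estimates were above 0 for 10 of 11 tested sympathoadrenal markers, 2 of 5 astrocyte markers, and 2 of 7 fibroblast and Schwann cell markers. Of all tested genes 47.3% had an estimate above 0. Astrocyte markers summed to 51.3 to 251 CPM at 20% oxygen and 129 to 174 CPM at 4% oxygen, a wide spread within the 20% oxygen group. Sox9 had 13.3 to 23.6 CPM, Aqp4 and Gjb6 had 0 counts in all libraries, and 5 of 8 stayed under 1 CPM throughout. Most of each sum therefore came from the remaining list members, Aldoc and Fgfr3, whose separate values are not given here. Of the fibroblast and Schwann cell markers 9 of 10 matched a row, and these summed to at most 16.9 CPM. The 2 genes with the smallest p of each marker list, given as mean CPM with SD at 20% and then 4% oxygen (n = 3), were Chga (262 ± 27.3 and 494 ± 84.9 CPM) and Dbh (243 ± 74 and 470 ± 50.4 CPM) of the sympathoadrenal list, S100b (0.431 ± 0.0908 and 0.243 ± 0.0921 CPM) and Gfap (0.154 ± 0.0764 and 0.0599 ± 0.0539 CPM) of the astrocyte list, and Sox10 (0.635 ± 0.649 and 0.266 ± 0.206 CPM) and Dcn (0.0509 ± 0.0441 and 0.123 ± 0.0897 CPM) of the fibroblast and Schwann cell list. The part of these markers in the transporter values was not tested. The library 20% oxygen replicate 1 stood apart from its group, with Pearson correlations of log2 CPM over genes of 0.965 and 0.967 against 0.985 between the other 2. It lay over 1.5-fold from the mean of those 2 for 6 of the tested transporter genes, 5 above and 1 below. The share of all tested genes that did so is not given here, so this count does not set the transporters apart.

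Promoter sequences are shown for 4 members because their motifs bear on the groups described below. RefSeq windows of 250 bases before to 50 bases after the start site (build GRCm38.p6) were found for 31 of the 42 genes. The amino acid response letters TGATGNAA, searched on both strands, were present in the windows of Slc7a11, Slc1a4 and Slc7a7, that is 3 of 31 genes and 4 of their 42 windows, and in 3.97% of all 32851 windows. In Slc7a11 they occurred in both orientations, starting 66 and 47 bases before the start site. Slc1a4 holds a copy that spans the start site. The letters CACGTG, a palindromic E-box, were present in 7 of 31 genes, which is 7 of 42 windows, and in 7.15% of all windows. These genes were Slc1a6, Slc1a7, Slc38a5, Slc43a1, Slc36a1, Slc38a7 and Slc7a14. The products of the last 3 are known from lysosomes, and a link of the E-box to lysosomal carriers was not tested. E-box letters overlap the hypoxia response core ACGTG, which 15 of the 42 member windows and 19.6% of all windows held, while the core GCGTG was in 14 of the 42 and in 32.4% of all windows. Each line reads 5′ to 3′ on the gene's strand and starts 150 bases before the start site, and capitals mark TGATGNAA on either strand in Slc7a11 and Slc1a4, and CACGTG in Slc36a1 and Slc7a14.
Slc7a11 (chr3:50443614-50443763, minus strand): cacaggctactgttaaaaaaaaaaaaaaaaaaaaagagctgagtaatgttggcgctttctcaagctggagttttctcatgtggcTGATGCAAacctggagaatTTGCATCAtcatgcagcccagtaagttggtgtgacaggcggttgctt
Slc1a4 (chr11:20332710-20332863, minus strand): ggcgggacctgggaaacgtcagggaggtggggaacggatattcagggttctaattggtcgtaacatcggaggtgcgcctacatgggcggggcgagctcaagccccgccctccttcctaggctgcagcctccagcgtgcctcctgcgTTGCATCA
Slc36a1 (chr11:55204190-55204343, plus strand): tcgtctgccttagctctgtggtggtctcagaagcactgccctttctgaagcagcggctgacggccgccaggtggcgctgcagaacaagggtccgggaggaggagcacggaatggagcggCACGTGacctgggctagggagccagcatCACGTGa
Slc7a14 (chr3:31310320-31310469, minus strand): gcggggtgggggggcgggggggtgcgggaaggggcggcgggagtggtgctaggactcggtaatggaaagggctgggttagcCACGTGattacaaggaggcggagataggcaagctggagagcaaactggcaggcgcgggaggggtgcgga

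Most transporter RNA in N1E115 cells came from a few genes. Levels between genes are compared in the authors' RPKM (reads scaled to the deposited gene length in kilobases and to library depth), averaged over 6 libraries. Above 10 RPKM lay 12 genes, 8 lay between 1 and 10 RPKM, and 22 were under 1 RPKM. The 4 most abundant were Slc7a5 (84.2 RPKM), Slc3a2 (82.0 RPKM), Slc38a2 (51.8 RPKM) and Slc1a5 (51.1 RPKM), and they held 59.8% of the RPKM summed over all members. The top 14 held 97.3%. Neither Slc7a5 and Slc3a2 nor Slc38a2 and Slc1a5 differed in level beyond their spread, since the SDs of Slc7a5 and Slc38a2 at 20% oxygen were 24.6 and 25.6 RPKM (n = 3).

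**Figure D1:**
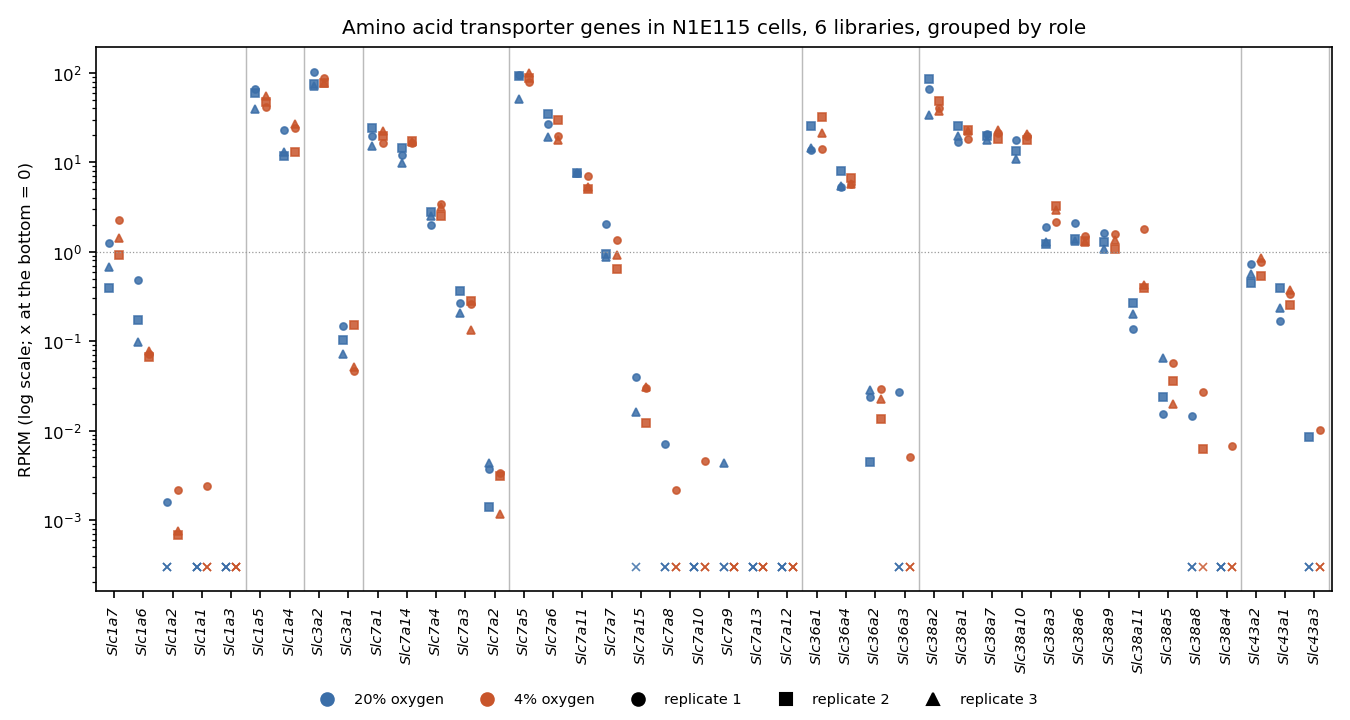
RPKM of each of the 42 transporter genes in the 6 libraries on a log axis, grouped by role with the most abundant gene of each role at the left; colours mark oxygen and shapes the replicate number, and crosses at the bottom edge are values of 0. Each role is carried by few genes, with Slc7a5 and Slc3a2 at the top and Slc1a3, Slc7a12 and Slc7a13 at 0 in every library.

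Low oxygen was not accompanied by a call in any transporter gene. Of the 42 genes, 29 passed the filter on low counts and were tested in the edgeR quasi-likelihood fit over 14979 genes. At a Benjamini-Hochberg adjusted p under 0.05, 0 members were higher and 0 lower, and the same held for all genes (0% in both directions); the smallest adjusted p of a member was 0.835. DESeq2 and limma-voom also called 0 members, and the share of all genes that these 2 tools called is not given here. At an unadjusted p under 0.05, 2 members were higher at 4% oxygen (Slc38a11 and Slc38a3), against 3.01% of all tested genes, and 1 was lower (Slc1a6), against 1.42%. With the replicate number as a block, these became 3 higher, adding Slc1a7, against 6.01% of all tested genes, and 2 lower, adding Slc38a2, against 2.86%. Groups did not overlap for 3 members higher at 4% oxygen (Slc38a11, Slc38a3 and Slc7a14; 6.33% of all tested genes) and 1 lower (Slc1a6; 3.72%).

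Estimates for the tested members split evenly, 15 above 0 and 14 below, with a median log2 fold change of 0.008 against -0.025 for all tested genes. Their median absolute log2 fold change was 0.27, and that of all tested genes 0.24. For the 12 genes above 10 RPKM, log2 fold changes ran from -0.58 (Slc38a2) to 0.41 (Slc38a10), and all 12 of their 95% intervals included 0. The lowest bound among them was -1.23 (Slc38a2) and the highest 1.09 (Slc1a4). As a yardstick for this contrast, the glucose transporter gene Slc2a1 had 39.7 to 67.4 CPM at 20% oxygen and 146 to 212 CPM at 4% oxygen. Its adjusted p over all genes was 0.112 in edgeR, 0.0222 in edgeR with the replicate block and 7.53e-06 in DESeq2. It was chosen here as a known target of the hypoxia-inducible factors with its result known.

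**Figure D2:**
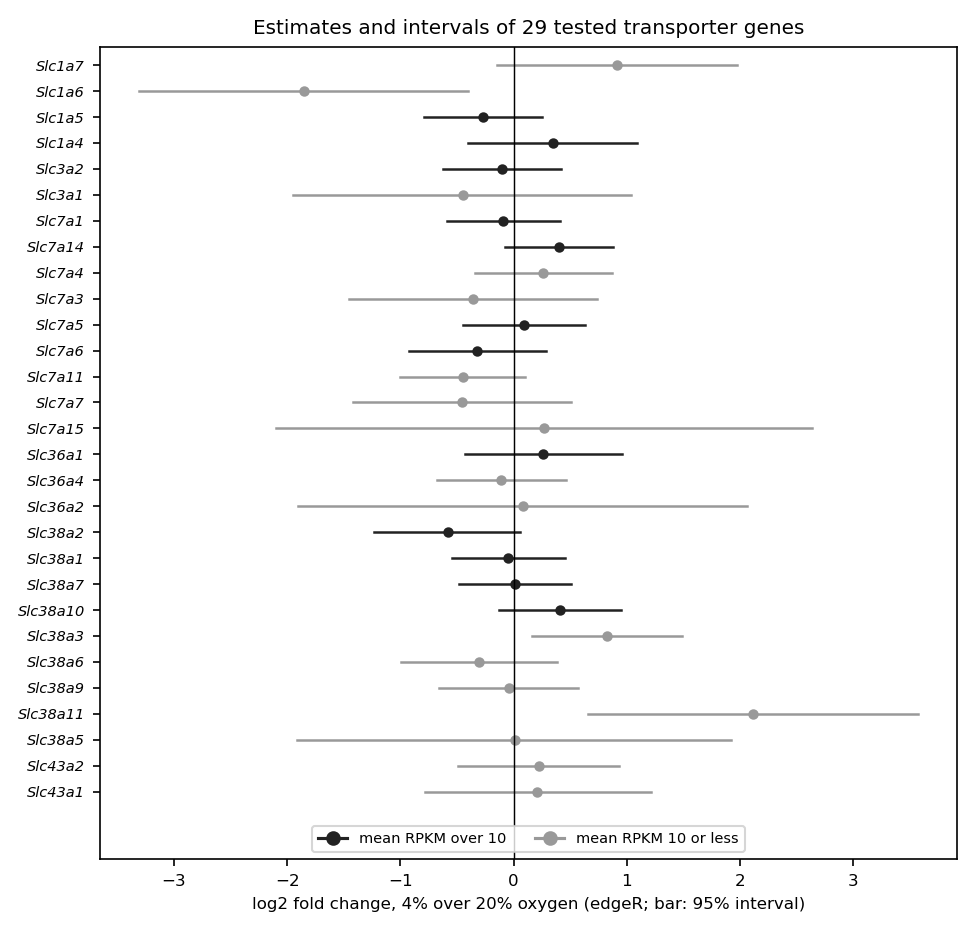
Log2 fold change of 4% over 20% oxygen (horizontal axis) for the 29 tested transporter genes, with the edgeR estimate as a point and its 95% interval as a bar; dark symbols are the 12 genes with a mean above 10 RPKM. All 12 dark intervals include 0, and the intervals that do not are those of Slc38a11, Slc38a3 and Slc1a6, all at or below 2.12 RPKM.

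Arginine uptake genes came down to Slc7a1. Slc7a1 encodes CAT1, the widely expressed system y+ arginine and lysine transporter (mm10 chromosome 5, 148327410 to 148399904). It had 228, 265 and 191 CPM in 20% oxygen replicates 1 to 3 and 194, 215 and 233 CPM in 4% oxygen replicates 1 to 3. The groups overlapped, and the log2 fold change was -0.09 (SE 0.23; 95% interval -0.59 to 0.41; edgeR adjusted p = 0.996). Slc7a3, which encodes CAT3, a form known from brain, had 1.02, 1.30 and 0.855 CPM at 20% oxygen and 1.03, 1.0 and 0.458 CPM at 4% oxygen. Slc7a2, the gene of CAT2, which supplies inducible nitric oxide synthase in macrophages, had 6, 2 and 8 counts at 20% oxygen and 6, 6 and 2 counts at 4% oxygen and was too low to test. Per length, Slc7a1 made up 98.4% to 99.4% of the RPKM of these 3 genes in each library. Nos1 itself, for comparison, had 32.6 to 44.6 CPM at 20% oxygen and 61.8 to 146 CPM at 4% oxygen (log2 fold change 1.39 with an SE of 0.32). Its adjusted p over all genes was 0.51 in edgeR, 0.0746 in edgeR with the replicate block and 0.0233 in DESeq2. The RPKM ratio of Nos1 to Slc7a1 was 0.298, 0.201 and 0.383 at 20% oxygen and 0.873, 0.47 and 1.02 at 4% oxygen, so these ranges did not overlap.

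More distant members of the cationic branch were also present. Slc7a14, a lysosomal relative of the CAT proteins (chromosome 3, 31202856 to 31310319), had 175, 195 and 153 CPM at 20% oxygen and 239, 233 and 216 CPM at 4% oxygen. All 4% oxygen libraries lay above all 20% oxygen libraries, and each same-numbered pair went up, by 0.45, 0.26 and 0.50 on the log2 scale. Its log2 fold change was 0.40 (SE 0.22; edgeR unadjusted p = 0.0963, adjusted p = 0.996). Slc7a4, a relative with no established transport activity, had 10.3, 13.7 and 13.9 CPM against 18.2, 12.4 and 14.9 CPM, groups that overlap. A stretch of 13.3% of its annotated exon bases overlaps P2rx6 on the opposite strand, and whether counting used strand is not given.

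Among the heterodimeric transporters, the heavy chain and its main light chain were at like levels. Slc3a2, the 4F2hc heavy chain (chromosome 19, 8706882 to 8723369), had 492, 335 and 364 CPM at 20% oxygen and 429, 350 and 332 CPM at 4% oxygen (log2 fold change -0.10, SE 0.24, 95% interval -0.62 to 0.42). Slc7a5, the LAT1 light chain that exchanges large neutral amino acids such as leucine for glutamine (chromosome 8, 121881146 to 121907686), had 536, 494 and 313 CPM and 455, 474 and 503 CPM (log2 fold change 0.09, SE 0.25, 95% interval -0.45 to 0.63). For both genes the groups overlapped and replicate numbers disagreed in direction. Per length, Slc7a5 equalled 0.725 to 1.27 times Slc3a2 within libraries. The 6 light chains that can pair with 4F2hc (Slc7a5, Slc7a6, Slc7a7, Slc7a8, Slc7a10 and Slc7a11) summed to 1.27, 1.82 and 1.12 times Slc3a2 at 20% oxygen and 1.21, 1.59 and 1.58 times at 4% oxygen. RNA for these light chains thus exceeded that of the heavy chain in each library on the RPKM scale.

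The other light chains were lower. Slc7a6 encodes y+LAT2, which exports arginine in exchange for neutral amino acids and sodium, and had 162, 194 and 124 CPM at 20% oxygen and 121, 168 and 96.4 CPM at 4% oxygen. It was lower in each of the 3 same-numbered pairs, by log2 ratios of -0.42, -0.21 and -0.36, but the groups overlapped (log2 fold change -0.32, SE 0.28; edgeR unadjusted p = 0.27). Slc7a11 encodes xCT, the cystine-glutamate exchanger that feeds glutathione synthesis (chromosome 3, 50364936 to 50443613). It had 112, 106 and 123 CPM at 20% oxygen and 107, 70.4 and 71.2 CPM at 4% oxygen, so that 4% oxygen replicate 1 lay within the 20% oxygen range and the other 2 below it. The log2 fold change was -0.45 (SE 0.25, edgeR unadjusted p = 0.0969, adjusted p = 0.996), and without 4% oxygen replicate 1 it was -0.70 (edgeR unadjusted p = 0.0207). Leaving out any other library gave -0.50 to -0.35, with edgeR unadjusted p-values from 0.0993 to 0.288. Slc7a7, the y+LAT1 chain, had 8.30, 3.57 and 3.77 CPM against 5.61, 2.42 and 3.34 CPM, and replicate 1 was the highest library of each group. Its log2 fold change was -0.46 (SE 0.44), and 0.05 without 20% oxygen replicate 1; 7% of its annotated exon bases overlap Oxa1l on the opposite strand.

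The second heavy chain, Slc3a1, known from kidney and intestine, had 24 to 84 counts in a library and shares 26.5% of its annotated exon bases with Prepl on the opposite strand, so these counts may belong to either gene. Its partners were at the floor, with 2 counts in all for Slc7a9 and 0 for Slc7a13. Slc7a8 (LAT2) had counts in 2 libraries, Slc7a10 (Asc-1) in 1, and Slc7a12 (Asc-2) in none. Slc7a15, a little-studied light chain relative, stayed at or below 22 counts. If each count is a separate event, a count of 0 allows up to 3 counts in a library, that is 0.0187 to 0.0248 CPM. All counts were even numbers, so 1 event may have added more than 1 count, and the bound would then be higher. This bound covers counting error alone.

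Glutamate and small neutral amino acid carriers of the Slc1 family divided sharply by level. Slc1a5 encodes ASCT2, a sodium-dependent exchanger that imports glutamine (chromosome 7, 16781346 to 16798274), and had 291, 246 and 189 CPM at 20% oxygen and 188, 198 and 217 CPM at 4% oxygen (log2 fold change -0.27, SE 0.24, 95% interval -0.79 to 0.25). Slc1a4 encodes ASCT1, an exchanger of serine, alanine and cysteine (chromosome 11, 20302180 to 20332713), and had 146, 70.6 and 90.3 CPM and 158, 78.5 and 153 CPM (log2 fold change 0.35, SE 0.34). Groups overlapped for both. Slc1a5 went down in 2 of 3 same-numbered pairs and Slc1a4 up in all 3, and the RPKM ratio of Slc1a5 to Slc1a4 was 2.84, 4.96 and 2.98 at 20% oxygen and 1.69, 3.58 and 2.02 at 4% oxygen.

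The classical high-affinity glutamate transporters were at or near 0. Slc1a3 (GLAST), the marker carrier of astrocytes and radial glia, had 0 counts in all 6 libraries. Slc1a2 (GLT-1), the main forebrain glutamate transporter of astrocytes, had at most 6 counts. Slc1a1 (EAAT3), the neuronal form, had 2 counts in 4% oxygen replicate 1 and 0 elsewhere. What was left came from Slc1a7 and Slc1a6, which encode carriers with chloride conductance known from retina (EAAT5) and cerebellar Purkinje cells (EAAT4). Slc1a7 had 6.06, 1.80 and 3.57 CPM at 20% oxygen and 11.2, 4.16 and 6.18 CPM at 4% oxygen. The groups overlapped, while each same-numbered pair was higher at 4% oxygen by 0.89, 1.21 and 0.79 on the log2 scale. Its log2 fold change was 0.91 (SE 0.48; edgeR unadjusted p = 0.0843, and 0.00364 with the replicate block, where the adjusted p was 0.265). The estimate was 1.42 without 20% oxygen replicate 1 (unadjusted p = 0.0112) and 0.58 without replicate 2 of that group (unadjusted p = 0.229). Leaving out a 4% oxygen library gave 0.42 for replicate 1 (unadjusted p = 0.435) and 1.19 for replicate 2 (unadjusted p = 0.0323). Slc1a6 had 1.61, 0.545 and 0.36 CPM against 0.247, 0.212 and 0.236 CPM, with no overlap and the highest value in 20% oxygen replicate 1. Its log2 fold change was -1.85 (SE 0.66; edgeR unadjusted p = 0.0171, adjusted p = 0.996), and without that library -0.97 (unadjusted p = 0.164).

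Sodium-coupled Slc38 genes gave the widest choice of expressed members, with 9 of 11 tested. Slc38a2 encodes SNAT2, the adaptive system A carrier for alanine and glutamine (chromosome 15, 96687392 to 96699698). It had 490, 592 and 273 CPM at 20% oxygen and 312, 344 and 248 CPM at 4% oxygen. Each same-numbered pair was lower at 4% oxygen, by log2 ratios of -0.65, -0.78 and -0.14, although 20% oxygen replicate 3 lay within the 4% oxygen range. The log2 fold change was -0.58 (SE 0.29; edgeR unadjusted p = 0.0712, adjusted p = 0.996), and with the replicate block the unadjusted p was 0.0366 and the adjusted p 0.519. Without 20% oxygen replicate 3 the estimate was -0.85 (edgeR unadjusted p = 0.00664), and without 20% oxygen replicate 2 it was -0.34 (edgeR unadjusted p = 0.277). Leaving out any other library gave -0.69 to -0.46, with edgeR unadjusted p-values from 0.0751 to 0.221. Slc38a1, the SNAT1 glutamine carrier 44.5 kb away on the same chromosome, averaged 280 ± 48.4 CPM and 271 ± 19.6 CPM (SD, n = 3; log2 fold change -0.05, SE 0.23). The RPKM ratio of Slc38a2 to Slc38a1 was 3.90, 3.32 and 1.70 at 20% oxygen and 2.24, 2.14 and 1.67 at 4% oxygen, so the ranges overlapped.

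Slc38a3 encodes SNAT3, a system N glutamine carrier best known from liver and astrocytes (chromosome 9, 107651155 to 107668968). It had 8.42, 5.02 and 6.12 CPM at 20% oxygen and 9.68, 13.3 and 11.6 CPM at 4% oxygen, with no overlap. The log2 fold change was 0.82 (SE 0.30; 95% interval 0.16 to 1.49; edgeR unadjusted p = 0.0199, adjusted p = 0.996). Leaving out each library in turn gave unadjusted p-values from 0.00348 to 0.0761, with the estimate between 0.67 and 1.05; the p was over 0.05 without replicate 2 or 3 of either oxygen level. Slc38a11, a little-characterised family member (chromosome 2, 65316633 to 65364026), had 0.357, 0.644 and 0.555 CPM against 4.8, 0.95 and 0.994 CPM, or 46 to 78 counts against 152 to 662. The groups did not overlap, but 4% oxygen replicate 1 was far above the other 2. Its log2 fold change was 2.11 (SE 0.67; edgeR unadjusted p = 0.00847, adjusted p = 0.835), and without 4% oxygen replicate 1 it was 0.89 (unadjusted p = 0.151). The genes whose log2 CPM followed Slc38a11 most closely over the 6 libraries were Itga2, BC096441 and Cnga3, with Pearson r of 0.993, 0.989 and 0.986. All 3 had their highest value in 4% oxygen replicate 1, at 7.11, 0.653 and 3.61 CPM.

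**Figure D3:**
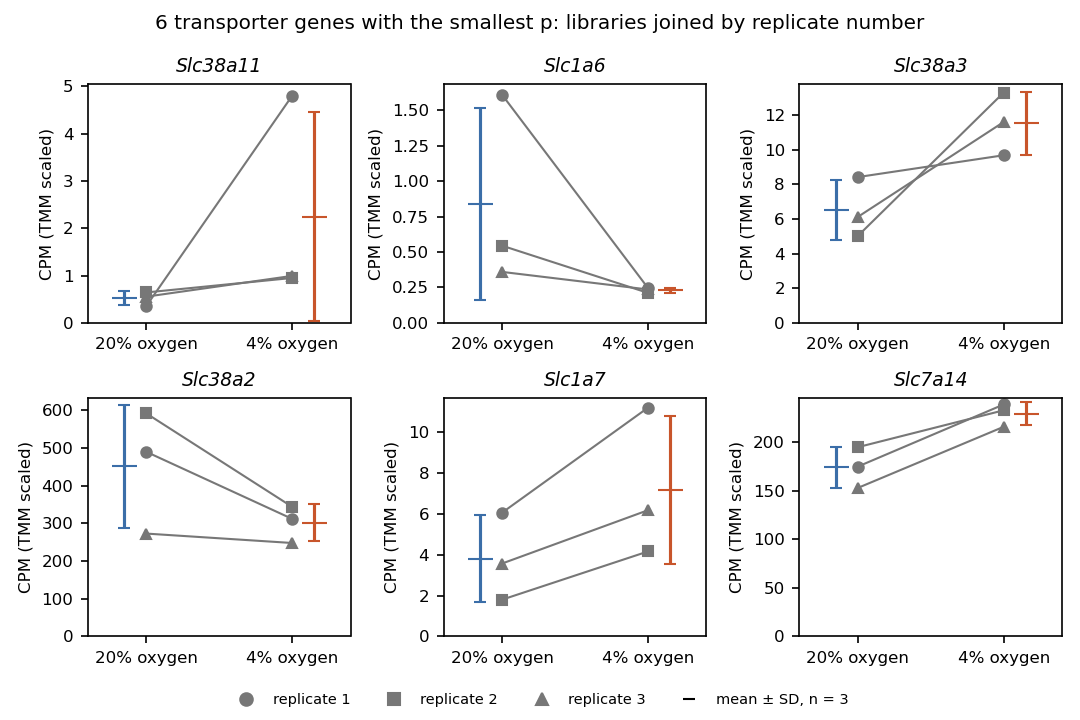
CPM (TMM scaled, vertical axis from 0) in the 6 transporter genes with the smallest edgeR p, at 20% and 4% oxygen; grey lines join libraries with the same replicate number, and coloured marks give the mean and SD (n = 3). Each of the 6 genes moves in the same direction in every pair. They were picked by p from these same libraries, so this agreement is not separate support. In Slc38a11, Slc1a6 and Slc1a7 the line of replicate 1 is clearly the steepest.

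Lysosomal and less studied Slc38 carriers overlapped between the oxygen levels. Slc38a9, the lysosomal arginine sensor of mTORC1 (chromosome 13, 112660766 to 112738752), had 23.0, 17.3 and 16.6 CPM at 20% oxygen and 23.4, 14.4 and 17.3 CPM at 4% oxygen (log2 fold change -0.04, SE 0.28, 95% interval -0.66 to 0.57). Slc38a7, which releases glutamine from lysosomes, had a mean of 104 ± 6.70 CPM at 20% and 105 ± 13.0 CPM at 4% oxygen (SD, n = 3), and the 95% interval of its log2 fold change of 0.01 was -0.48 to 0.51. Slc38a10 had 156, 109 and 104 CPM and 178, 148 and 164 CPM (log2 fold change 0.41, SE 0.24). It was higher in each same-numbered pair, although 20% oxygen replicate 1 overlapped the 4% oxygen range. Without that library the estimate was 0.62 (edgeR unadjusted p = 0.0185). Leaving out any other library gave 0.30 to 0.48, with edgeR unadjusted p-values from 0.139 to 0.292. Slc38a6 had 10.1, 6.16 and 6.84 CPM against 7.31, 5.90 and 5.50 CPM. Slc38a5 stayed at or below 28 counts, Slc38a8 at or below 16, and Slc38a4, on chromosome 15 about 295 kb from Slc38a2, had 6 counts in 4% oxygen replicate 1 and 0 elsewhere.

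Proton-coupled transport rested on Slc36a1 and Slc36a4. Slc36a1 encodes PAT1, found on lysosomes and at the cell surface (chromosome 11, 55204340 to 55236330), and had 117, 204 and 132 CPM at 20% oxygen and 124, 259 and 162 CPM at 4% oxygen. Replicate 2 was highest in each group, and each pair was slightly higher at 4% oxygen (log2 fold change 0.26, SE 0.32; edgeR unadjusted p = 0.422). Slc36a4 averaged 19.4 ± 3.58 and 18 ± 2.05 CPM (SD, n = 3). Slc36a2 and Slc36a3, which lie next to Slc36a1 on chromosome 11 with gaps of 19.3 and 6.76 kb along the cluster, had at most 16 and 10 counts, so that a single gene of this cluster was expressed. In the Slc43 family, Slc43a2 (LAT4) had 4.91 to 9.13 CPM over all libraries, Slc43a1 (LAT3) 0.791 to 1.73 CPM, and Slc43a3, a purine nucleobase carrier rather than an amino acid transporter, at most 6 counts. Groups overlapped for each of them; 9.18% of the annotated exon bases of Slc43a2 overlap Gm45606 on the opposite strand.

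Shares of the roles in the summed RPKM were compared between the 2 oxygen levels. Light chains held 25.4% ± 1.82 at 20% oxygen and 26.2% ± 1.13 at 4% oxygen (SD, n = 3), sodium-coupled Slc38 carriers 26.6% ± 2.16 and 24.5% ± 0.886, and heavy chains 18.7% ± 3.39 and 18.1% ± 2.10. The exchangers Slc1a4 and Slc1a5 held 15.7% ± 1.74 and 15.4% ± 2.18. Cationic transporters held 7.78% ± 0.886 and 8.82% ± 0.349, and proton-coupled carriers 5.43% ± 1.48 and 6.34% ± 2.0. High-affinity glutamate transporters and the Slc43 family each stayed under 1% in every library. These shares differed between oxygen levels by less than the larger SD of the 2 groups, apart from those of the cationic transporters, 6.76% to 8.33% against 8.52% to 9.20%, which did not overlap. That role includes Slc7a14, whose groups did not overlap either.

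**Figure D4:**
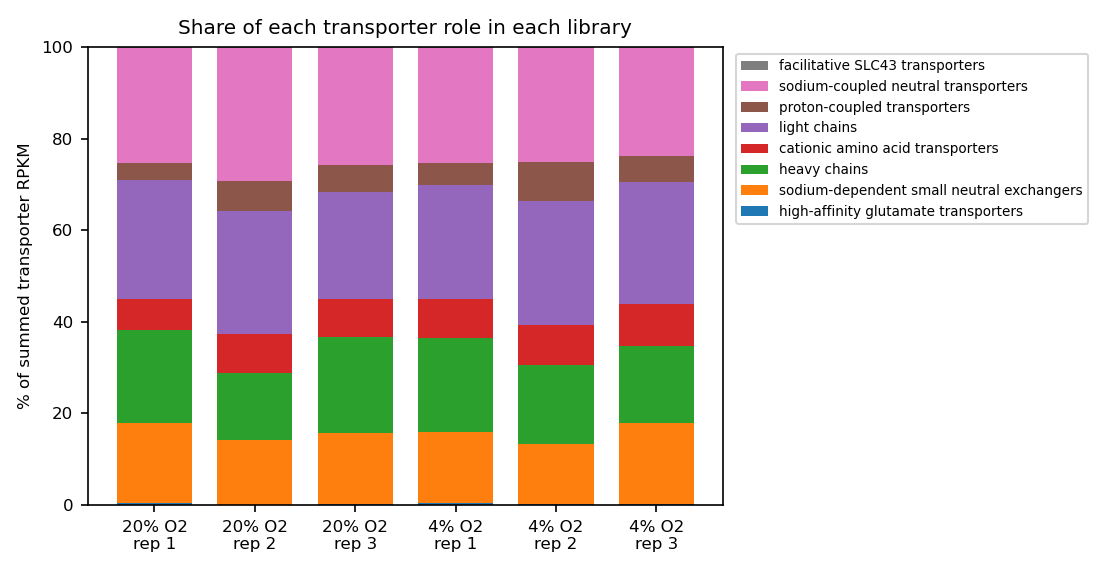
Share of the RPKM summed over the 42 transporter genes (vertical axis, percent) that each role held in each library, with 3 libraries at 20% oxygen on the left and 3 at 4% oxygen on the right. Light chains (23.3% to 27.1%) and sodium-coupled carriers (23.5% to 29.1%) were the largest roles in all 6 libraries.

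Other genes of amino acid supply were read from lists set beside the transporters; edgeR called 0 over all genes in any list, with or without the replicate block, limma-voom called 0, and DESeq2 called 1, Nos1. Counts at an unadjusted p under 0.05 in these lists stand against 3.01% of all tested genes higher and 1.42% lower. Among 23 tested ATF4 and amino acid response genes, 17 estimates were below 0 with a median log2 fold change of -0.21 against -0.025 for all tested genes, and 1 passed an unadjusted p under 0.05. This lean went with 20% oxygen replicate 1: without that library 12 estimates were above 0 and 11 below, with a median of 0.05 against 0.004 for all tested genes. The list summed to 4480 to 6080 CPM at 20% oxygen and 4480 to 4590 CPM at 4% oxygen. Ddit3, a stress-induced transcription factor gene named here after its values were seen, had same-numbered log2 ratios of -1.35, 0.62 and 0.46. The gene that passed was Ddit4, an mTORC1 inhibitor that is also induced by hypoxia, at 324, 129 and 314 CPM against 544, 463 and 531 CPM (log2 fold change 1.0, SE 0.32; edgeR unadjusted p = 0.00973). Nupr1, a stress-response regulator, had the next smallest p of that list and averaged 48.8 ± 20.7 and 31.0 ± 2.41 CPM (SD, n = 3).

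In the list of arginine and nitric oxide metabolism 2 of 18 tested genes passed the unadjusted threshold, both higher: Nos1, and Gamt, which completes creatine synthesis, at 14.1, 25.1 and 23.8 CPM against 36.7, 31.9 and 39.6 CPM. Of 17 glutamine and glutamate enzymes 1 did, Gls2, the glutaminase known as a p53 target, at 13.6, 11.2 and 14 CPM against 20.3, 24.6 and 25.2 CPM (log2 fold change 0.85, SE 0.25; edgeR unadjusted p = 0.00615, adjusted p = 0.759). Psat1, which makes phosphoserine with glutamate as the amino donor, had 640 to 673 CPM at 20% oxygen and 450 to 520 CPM at 4% oxygen (log2 fold change -0.43, SE 0.21). Among 33 tested genes of lysosomal amino acid sensing 2 passed, both lower. They were Fnip1, at 186, 121 and 82.3 CPM against 81.5, 60.5 and 59.6 CPM, and its partner Flcn, at 90.7, 67.0 and 40.1 CPM against 29.2, 46.7 and 27.0 CPM, which together activate the RagC and RagD GTPases. On the log2 scale Fnip1 was estimated at -0.95 (SE 0.31) and Flcn at -0.94 (SE 0.33), with edgeR adjusted p-values of 0.885 and 0.996. For Fnip1 and Flcn replicate 1 was the highest of the 20% oxygen libraries.

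The list of 24 other amino acid carriers had 22 tested genes and 1 past the unadjusted threshold, Slc16a10, the aromatic amino acid transporter TAT1, which was lower at 12.2, 15 and 11.4 CPM against 7.70, 9.55 and 7.38 CPM (log2 fold change -0.65, SE 0.27; edgeR unadjusted p = 0.0363, adjusted p = 0.996). Slc25a22, a mitochondrial glutamate carrier, had the next smallest p and averaged 30.1 ± 3.86 and 40.1 ± 9.37 CPM. Of 16 genes of branched-chain amino acid breakdown 0 passed; Ivd, isovaleryl-CoA dehydrogenase, averaged 24.6 ± 5.21 and 36.1 ± 2.0 CPM (edgeR unadjusted p = 0.0505, and 0.025 with the replicate block, where it was higher in 3 of 3 pairs), and Ppm1k, the phosphatase that activates the branched-chain ketoacid dehydrogenase, 8.54 ± 4.65 and 5.72 ± 0.676 CPM (SD, n = 3).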

How the data were processed

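The table holds gene counts and RPKM for 6 libraries. Per the file headers, the authors deposited raw counts per gene and RPKM per kilobase of a gene length column; 100% of the counts were even numbers. TopHat2 (2.0.6), HTSeq, Bowtie and the mm10 build are listed per the submitters' processing notes, while annotation, strand use and counting mode were not found there or in the labels. The labels name a stranded total RNA kit in the design text and an mRNA kit in the protocol.

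Counts were tested in R 4.3.3 with edgeR 4.0.16 (filterByExpr, minimum count 10 and minimum total 15; TMM; quasi-likelihood test, two-sided, no covariate) over 14979 genes. In simulated counts with 50 genes per set change, a log2 change of 1 was called in 14% and of -1 in 4%. For log2 changes of 2 and -2 these were 84% and 62%. An absent call therefore says little about log2 changes of 1 or -1. Intervals are the estimate ± the t quantile times the SE. Alternatives were DESeq2 1.42.0, limma-voom (limma 3.58.1), other scalings, no filter, a replicate block and leaving out each library. RPKM served for levels between genes. Exon overlaps used GENCODE M21.

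Members, lists and alternatives were chosen with earlier results of these data known. Per-library values are given for the 14 members with the smallest p and for Slc7a1, Slc7a2, Slc7a3, Slc3a2, Slc7a5, Slc7a11, Slc1a5, Slc38a2 and Slc38a9, and the 2 genes with the smallest p of each context list and Nos1 are named; other genes are named as examples after their values were seen. Lamtor1, Lamtor4, Bmt2 and Ncmap matched no row. Deviations from group means correlated at 0.317, 0.604 and 0.212 between same-numbered libraries and at -0.55 to 0.154 between libraries with unlike numbers. Same-numbered libraries are therefore set side by side in the text and blocked in 1 alternative. The labels do not say what the numbers mark, and the main fit, with its counts and intervals, used no block.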

Additional observations from a re-analysis of the deposited data

How the results depend on the processing

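In all 12 alternatives 0 transporter genes were called in either direction over all genes, and the median log2 fold change of the tested members stayed between -0.082 and 0.092. The share of all genes called in the alternatives is not given here. The number at an unadjusted p under 0.05 was 2 higher and 1 lower with all libraries. It was 3 higher and 2 lower with no filter on low counts, and also 3 higher and 2 lower with the replicate block, and leaving out each library in turn gave 1 to 4 higher and 0 to 2 lower. Of 19 named tested members 14 kept the sign of their estimate throughout. The log2 fold change of Slc38a9 was 0.03 when libraries were scaled by their totals alone, and -0.27 to 0.12 with each library left out. In those fits Slc7a7 ran from -0.87 to 0.05, Slc3a2 from -0.24 to 0.08, Slc7a1 from -0.20 to 0.03 and Slc7a5 from -0.11 to 0.24; the cause was not tested. Over the same 12 alternatives the genes at an unadjusted p under 0.05 numbered 1 to 4 in the ATF4, arginine and lysosomal sensing lists. They numbered 1 to 2 among glutamine and glutamate enzymes, 0 to 2 among other carriers and 0 to 1 in the branched-chain list. Of the sympathoadrenal markers 4 to 6 passed. With all libraries it was 5 of 11 tested, all higher, against 3.01% of all tested genes. Without 20% oxygen replicate 1, 3 of 5 tested astrocyte markers passed, as did 1 of 7 fibroblast and Schwann cell markers. In the other alternatives 0 of either list passed. The share of all tested genes in the fit without that library is not given here. Counted without length, cationic transporters held 14.6% of the transporter total in place of 8.3% over all libraries. In a fit chosen after seeing the data, the ATF4 list's median went from -0.21 to 0.05 without 20% oxygen replicate 1. Counting error is largest for members below about 1 CPM.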
